A study of Bos taurus with 6 samples.

Results

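AP-1 is a transcription factor made of a JUN family protein paired with a FOS family protein, or of a pair of JUN proteins, and it binds short DNA elements in the control regions of many genes. FOS, JUN, JUNB, EGR1, IER2, IER3 and MYC are immediate early genes, which are transcribed from factors already present in the cell, mostly within the first hour after a stimulus, and many of their transcripts are short-lived. TGF-β receptors act through SMAD proteins and through MAP kinases, and SMAD proteins can bind DNA beside AP-1, which in cartilage is best known for driving collagenase genes. The set described here holds 10 genes: the JUN family members JUN, JUNB and JUND, the FOS family members FOS and FOSL2, and EGR1, IER2, IER3, MYC and KLF10. Its members are the probe sets whose single annotated symbol is one of these 10, which gave 23 of the 24016 probe sets tested. JUNB, IER3 and MYC have 1 probe set each, FOS, EGR1 and KLF10 have 2, FOSL2, JUND and IER2 have 3, and JUN has 5. Where a gene has several they are told apart by a letter (FOS a and FOS b), which the plots of differences and of signals pair with the array maker's identifier.

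The samples were bovine (Bos taurus) articular chondrocytes, the cells that make joint cartilage, grown as micromass cultures, which are dense drops of cells. The 6 arrays (Affymetrix Bovine Genome Array) came from 3 cultures that received TGF-β1 at 5 ng/ml over 8 hours and from 3 untreated cultures, with replicates 1 to 3 in each group; the treatment protocol in the labels calls what the controls received a vehicle. Per the methods, cartilage of 3 cows was used with and without TGF-β, in medium low in serum, but no label ties a replicate number to a cow, and neither strain nor age is given in the sources used here. RNA was amplified in 2 rounds from 50 ng, and a single time was measured, so a change that had ended by 8 hours could not be seen.

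Values are log2 signals centred on the median of each probe set over the 6 arrays. They show how the arrays differ from one another and hold no level, so genes could not be ranked by abundance and the presence of cartilage markers could not be checked. With 6 arrays the centre lies midway between the middle pair of values, which are therefore mirror images of each other. Differences are TGF-β minus untreated, from limma with both treatment and replicate number in the model (the paired fit), with Benjamini-Hochberg adjustment over all 24016 probe sets and a threshold of 0.05. A gene is said to have risen or fallen only where a probe set passed it. A culture is a bulk sample, in which fewer cells of a type and less RNA per cell cannot be told apart. An exact permutation test of 3 against 3 arrays cannot go below p = 0.10, and one over 3 pairs cannot go below p = 0.25, so no member could pass 0.05 by such a test; limma draws the variance of each probe set toward that of all.

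A few facts about the arrays touch what follows. TGF-β array 2 was bright in the added bacterial control transcripts, the spike-ins (median 1.53 log2 units over 18 probe sets, against -0.17 to 0.06 on the other 5 arrays). Both arrays of replicate 3 were high in cell cycle genes (medians over 34 probe sets of 1.91 with TGF-β and 2.29 untreated, against -0.27 to -0.04 elsewhere). Of the marker lists, 4 of 24 chondrocyte probe sets rose (PRG4 and COMP) and 4 fell (all COL11A1), 2 of 8 fibroblast probe sets fell (COL1A2), and 1 of 6 for hypertrophic chondrocytes or osteoblasts fell (IBSP). None of 8 leukocyte, 8 endothelial and 3 smooth muscle probe sets passed limma's adjusted threshold, with 1, 0 and 1 at an unadjusted p under 0.05. Of all probe sets, 2.44% rose and 3.46% fell at the adjusted threshold. The part of these array and marker differences in the results was not tested.

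JUNB, IER3, FOS and KLF10 rose with TGF-β, and no member fell. Of the 23 probe sets, 5 (21.7%) were higher at the adjusted threshold, where 2.44% of all probe sets were, and 0 were lower, where 3.46% of all were. The members were chosen with earlier results of these data known, so these shares do not measure how often such genes rise. Both FOS probe sets are among the 5 and followed each other over the arrays (r = 0.93). At an unadjusted p under 0.05, limma put 6 higher and 2 lower, against 8.6% and 11.1% of all probe sets. The groups did not overlap in 4 members with TGF-β above and 0 with TGF-β below (6.11% and 4.91% of all), and 9 were higher and 3 lower in all 3 pairs (20.6% and 20.0% of all). The 23 probe sets as a whole did not share a direction: 13 differences were positive and 10 negative, and the median difference was 0.007 log2 units, against 0.011 over all probe sets. The median size of the difference, without its sign, was 0.211, against 0.123 over all. No member reached 2-fold. With replicate 1 or replicate 2 (which holds the bright spike-ins) left out, the paired fit called 2 members higher, JUNB and IER3, and without replicate 3 it called 5. On the groups alone, with no term for the replicate, limma called 0 of all probe sets, and put 3 members higher and 0 lower at an unadjusted p under 0.05 (2.7% and 3.03% of all). The test of the methods, which assumes unequal variance, also called 0 of all after the same adjustment, which the methods do not mention. At an unadjusted p under 0.05 it put 2 members higher and 0 lower (2.3% and 2.0% of all). On means over the probe sets of a gene, the paired fit called 3 of the 10 genes higher and 0 lower, against 2.24% and 4.58% of 9155 genes.

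JUNB, which pairs with FOS proteins and is a weaker activator than JUN at many AP-1 elements, had the smallest p of the set. Its probe set had 0.37, 0.54 and 0.27 log2 units on TGF-β arrays 1, 2 and 3, against -0.27, -0.37 and -0.54 on untreated arrays 1, 2 and 3. Every TGF-β array lay above every untreated array, and each group spanned less than the gap between the group means. The means were 0.39 ± 0.14 with TGF-β and -0.40 ± 0.14 untreated (SD, n = 3 each), and the pairs differed by 0.64, 0.91 and 0.82. The fitted difference was 0.79 log2 units (SE 0.110, n = 3 pairs), a fold of 1.73 (95% interval 1.45 to 2.06), with a limma adjusted p of 0.00516, which ranked it 292nd of all probe sets. Treatment accounted for 92.5% of its sum of squares over the 6 arrays and the replicate number for 5.53%. JUNB kept its call without each replicate in turn (adjusted p = 0.00828 to 0.0446), and on the groups alone its adjusted p was 0.337.

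JUN, the founding member of the family and the usual partner of FOS, did not pass the test on any of 5 probe sets. Their differences ran from -0.19 (JUN a, adjusted p = 0.452) to 0.05 (JUN b, adjusted p = 0.883), and the mean over them was -0.06, a fold of 0.960 (95% interval 0.823 to 1.12). In all 5 the groups overlapped. The probe sets did not follow one another over the arrays: their correlations ran from -0.84 to 0.87 (Pearson r, 6 arrays, a description). JUN a and JUN c, the pair with r = 0.87, shared a high untreated array 1 (0.56 and 0.55), whereas JUN d was low there (-0.23).

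JUND, a JUN family member that is expressed more steadily than the others in many cells, gave mixed values over 3 probe sets. JUND c had 0.0005, -0.32 and -0.12 on the TGF-β arrays, against 0.24, -0.0005 and 0.36 on the untreated arrays. It was lower with TGF-β in all 3 pairs, and the groups met only at TGF-β array 1 and untreated array 2. Its difference of -0.35 (SE 0.109, n = 3 pairs) had an unadjusted p of 0.0115 and an adjusted p of 0.111. JUND b had -0.31 (adjusted p = 0.227), with pair differences of -0.48, 0.02 and -0.47, and JUND a had 0.13 (adjusted p = 0.576). The mean over the 3 was -0.18, a fold of 0.886 (95% interval 0.765 to 1.03).

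**Figure D1:**
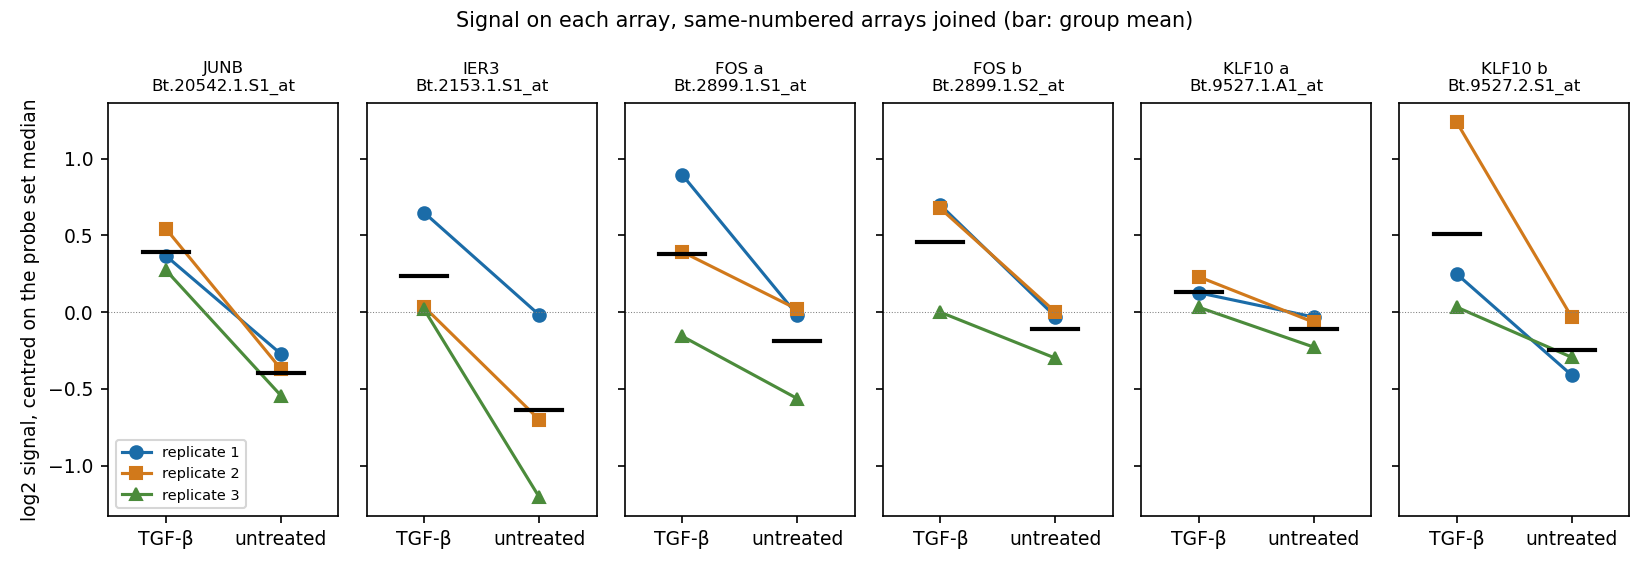
Centred log2 signal (vertical axis) of the JUNB, IER3, FOS and KLF10 probe sets on each array, TGF-β left and untreated right, with lines joining arrays of the same replicate number and bars at the group means. Every line runs downward to the untreated array, and the groups overlap only in the FOS panels, where replicate 3 lies below the other replicates.

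FOS rose on both of its probe sets, with a fold of 1.48 on each. FOS is the classic immediate early gene and cannot pair with itself, so that it binds DNA only with a JUN family protein. FOS a had 0.89, 0.39 and -0.16 log2 units on the TGF-β arrays, against -0.02, 0.02 and -0.56 on the untreated arrays. FOS b had 0.70, 0.68 and -0.0009 on the TGF-β arrays, against -0.03, 0.0009 and -0.30 on the untreated arrays. Each TGF-β array lay above the untreated array of its own number, but replicate 3 was low in both groups, so that TGF-β array 3 lay below untreated array 2 and the groups overlapped. The differences were 0.56 (SE 0.133, adjusted p = 0.0438) and 0.57 (SE 0.122, adjusted p = 0.0303; n = 3 pairs), and the probe sets followed each other closely over the arrays (r = 0.93, 6 arrays). Replicate 1 had the largest pair difference on each (0.91 and 0.73), against 0.37 and 0.67 in replicate 2 and 0.41 and 0.30 in replicate 3. Neither kept its call without replicate 1 (adjusted p = 0.238 and 0.154) or without replicate 2 (0.101 and 0.157), or after quantile normalization of the centred values (0.116 and 0.0624).

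FOSL2 encodes Fra-2, a FOS family protein without the strong activating part that FOS has. It did not pass the test on any of 3 probe sets. FOSL2 a had 0.07, 0.51 and -0.02 on the TGF-β arrays, against 0.02, -0.10 and -0.35 on the untreated arrays. TGF-β array 2 was the highest, and the groups overlapped. This probe set was higher in all 3 pairs, with a difference of 0.33 (SE 0.129, n = 3 pairs), an unadjusted p of 0.0329 and an adjusted p of 0.201. The other 2 had 0.01 (FOSL2 b) and 0.05 (FOSL2 c), and the mean over all 3 was 0.13, a fold of 1.09 (95% interval 0.925 to 1.29).

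Within pairs, JUNB was set against JUN and JUND, and FOS against FOSL2, each a gene that rose against one that did not. Other pairs of AP-1 members were not compared, so the shared direction below holds for these comparisons alone. That direction also followed from the choice of genes and is no separate support. The JUNB difference exceeded that of JUN by 0.82, 0.87 and 0.85 log2 units in pairs 1, 2 and 3 (0.85 ± 0.02, SD, n = 3 pairs), and that of JUND by 0.82, 1.01 and 1.07 (0.96 ± 0.13). The FOS difference exceeded that of FOSL2 by 0.89, 0.27 and 0.15 (0.44 ± 0.40), with replicate 1 far above the others. These used means over the probe sets of a gene, and those of JUN (r from -0.84 to 0.87) and JUND (down to r = -0.76) did not follow one another. The SD of 0.02 is therefore no measure of precision, and the pair differences of JUNB alone had an SD of 0.14. With 3 pairs, the exact 2-sided permutation p was 0.25 for each of 5 such comparisons, raw and adjusted over the 5, which is the smallest it can be.

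IER3 had the largest difference of the set. It encodes a stress-induced protein that affects cell survival and MAP kinase signalling. Its probe set had 0.65, 0.03 and 0.02 log2 units on the TGF-β arrays, against -0.02, -0.70 and -1.20 on the untreated arrays. TGF-β array 1 was the highest and untreated array 3 the lowest, and the groups did not overlap, though TGF-β array 3 and untreated array 1 lay close together. The means were 0.23 ± 0.36 with TGF-β and -0.64 ± 0.60 untreated (SD, n = 3 each), and the pairs differed by 0.67, 0.73 and 1.22. The difference was 0.87 (SE 0.133, n = 3 pairs), a fold of 1.83 (95% interval 1.49 to 2.26), with an adjusted p of 0.00749. The replicate number accounted for 41.4% of its sum of squares and treatment for 54.2%. IER3 kept its call without each replicate in turn (adjusted p = 0.0107 to 0.0474), but not with the replicate number as a random effect (0.0861) or on the groups alone (0.82).

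IER2, which encodes a nuclear protein with few known domains, did not pass the test. IER2 a had -0.08, -0.57 and 0.11 on the TGF-β arrays, against 0.08, -0.19 and 0.20 on the untreated arrays, and IER2 b had -0.0029, -0.73 and 0.0029 with TGF-β, against 0.14, -0.17 and 0.06 untreated. Both were lower with TGF-β in all 3 pairs, and TGF-β array 2 was far below the other arrays on each (r = 0.94 between them, 6 arrays). Their differences were -0.21 (adjusted p = 0.355) and -0.25 (adjusted p = 0.326), and the third probe set had -0.06. The mean over the 3 gave a fold of 0.886 (95% interval 0.752 to 1.04). Within pairs, the IER3 difference exceeded that of IER2 by 0.89, 1.05 and 1.21 (1.05 ± 0.16, SD, n = 3 pairs). IER3 had risen and IER2 had not, so the direction of this comparison followed from that choice of genes.

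EGR1, a zinc finger factor induced through serum response elements, did not pass the test on either probe set. EGR1 a had 0.0023, -0.55 and 0.22 on the TGF-β arrays, against -0.0023, -0.21 and 0.28 on the untreated arrays. Replicate 2 was low and replicate 3 high in both groups, and the difference was -0.13 (SE 0.115, adjusted p = 0.611). EGR1 b had -0.09 (adjusted p = 0.793), with pair differences of -0.30, 0.28 and -0.26. The mean over both gave a fold of 0.925 (95% interval 0.799 to 1.07).

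MYC, which drives cell growth and ribosome production as a partner of MAX, was the member with the highest signal in replicate 3 relative to the other replicates. Its probe set had 0.0046, -0.01 and 0.78 on the TGF-β arrays, against -0.0046, -0.24 and 0.33 on the untreated arrays. Replicate 3 was the highest of each group, as it was for cell cycle genes, and the groups overlapped. The pairs differed by 0.01, 0.23 and 0.45, and the fitted difference of 0.23 (SE 0.120, n = 3 pairs), a fold of 1.17 (95% interval 0.971 to 1.42), had an adjusted p of 0.349. The replicate number accounted for 80.4% of its sum of squares and treatment for 12.1%.

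KLF10, also known as TGF-β-inducible early gene 1, encodes a Krüppel-like repressor. It rose on 1 of its 2 probe sets. KLF10 b had 0.25, 1.24 and 0.03 log2 units on the TGF-β arrays, against -0.41, -0.03 and -0.29 on the untreated arrays. The groups did not overlap, and TGF-β array 2, the array with bright spike-ins, was the highest by a wide margin. The pairs differed by 0.66, 1.27 and 0.33, and the fitted difference was 0.75 (SE 0.168, n = 3 pairs), a fold of 1.68 (95% interval 1.29 to 2.19), with an adjusted p of 0.035. Without replicate 2 the difference was 0.49 (adjusted p = 0.143), and without replicate 1 it was 0.80 (adjusted p = 0.0676). KLF10 a had 0.13, 0.23 and 0.03 on the TGF-β arrays, against -0.03, -0.07 and -0.23 on the untreated arrays. Its groups did not overlap either, but the difference was smaller, at 0.24 (SE 0.105, adjusted p = 0.259). The mean over both was 0.49 (fold 1.41, 95% interval 1.16 to 1.71), with an adjusted p of 0.0544 over 9155 genes.

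**Figure D2:**
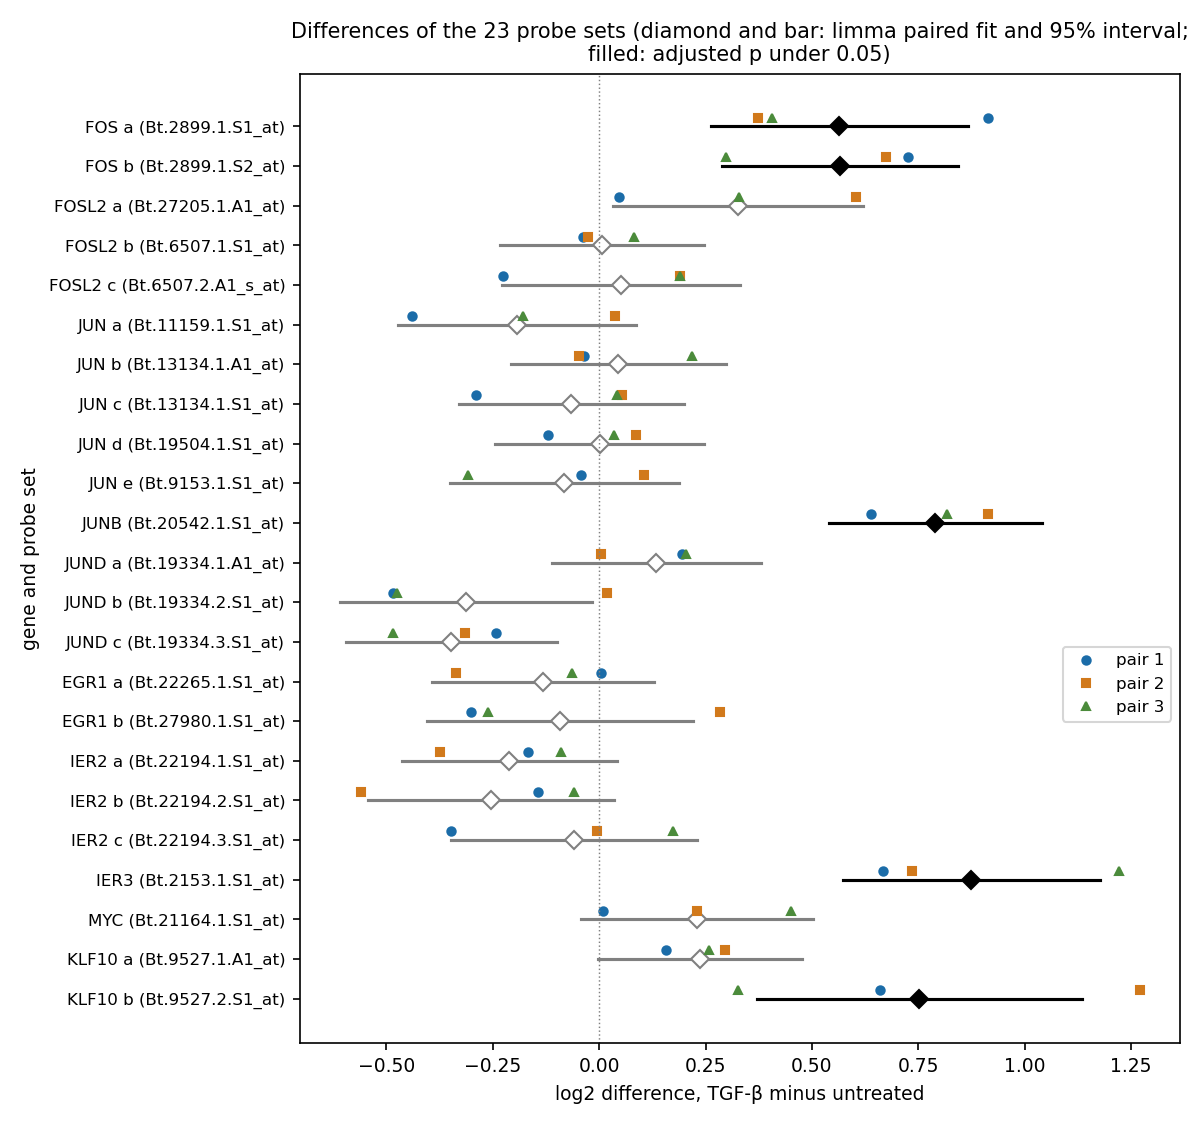
Log2 difference, TGF-β minus untreated, of each of the 23 probe sets, with limma's paired estimate (diamond, filled where the adjusted p is under 0.05), its 95% interval (bar) and the 3 pair differences (points). The filled diamonds are the FOS, JUNB and IER3 probe sets and 1 of KLF10, all between 0.56 and 0.87.

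For most members the replicate number took a larger share of the variation than treatment did. It has 3 levels and treatment 2, so its share tends to be the larger even where neither has an effect. The shares are therefore given beside those of all probe sets. The replicate number took a median of 48.7% of a member's sum of squares and treatment 16.9%, against 59.5% and 11.9% over all probe sets. Treatment took the larger share in 7 of the 23: both KLF10 probe sets, JUNB, IER3, 1 of FOS, 1 of FOSL2 and 1 of JUND. Replicate 3 lay below the mean of the other 2 replicates in both groups for 12 members, among them FOS, JUNB, IER3 and KLF10. It lay above them in both groups for 7, among them MYC, EGR1 and 2 probe sets of IER2. TGF-β array 2 held the highest value of 8 members and the lowest of 5, where it held the highest of 26.8% and the lowest of 19.2% of all probe sets. Untreated array 3 held the highest of 4 and the lowest of 9, against 17.6% and 19.9% of all.

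**Figure D3:**
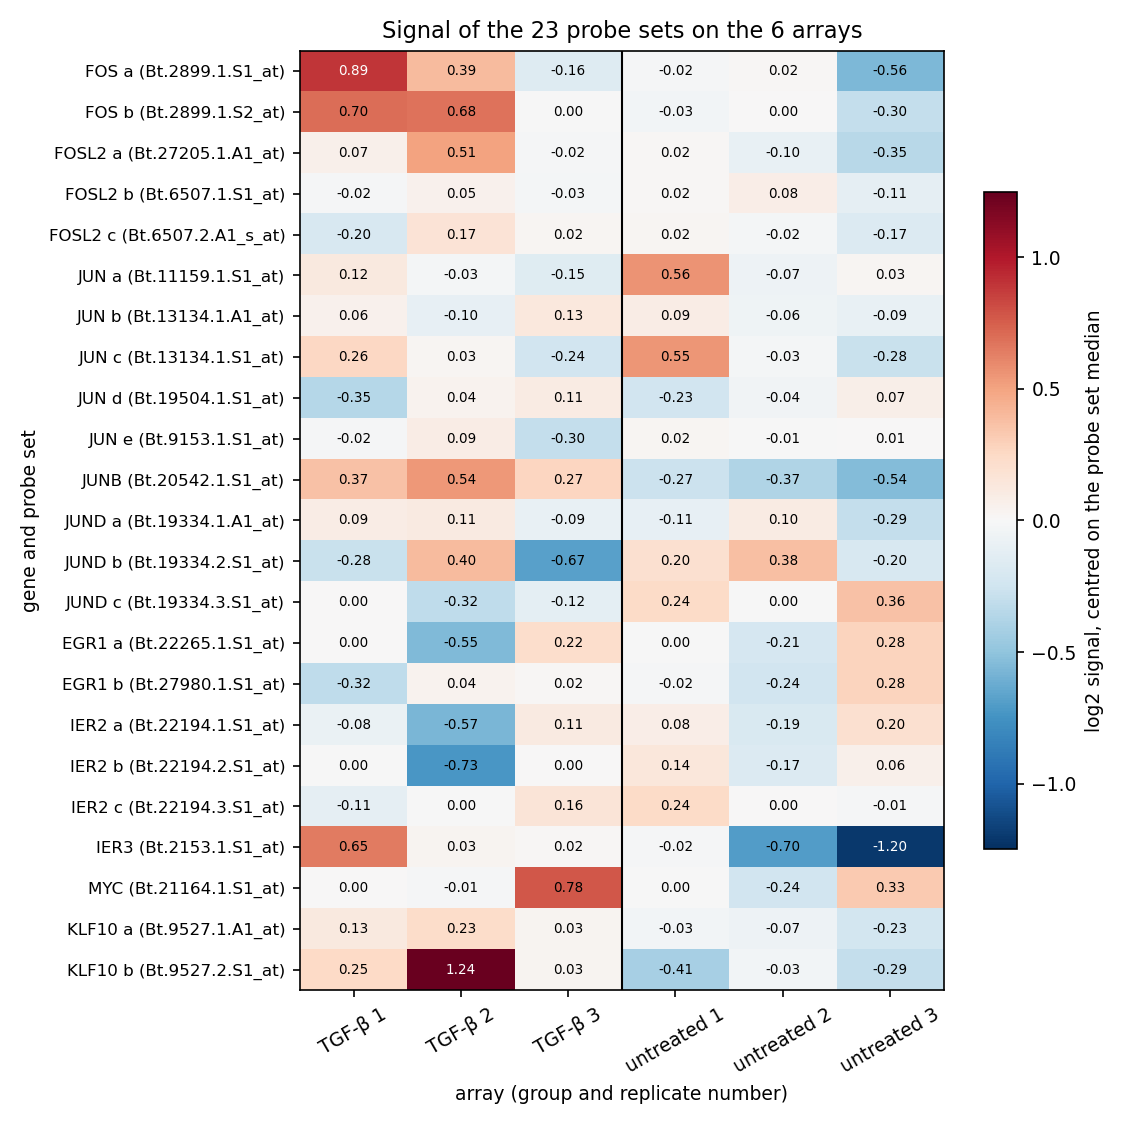
Centred log2 signal (colour and number) of the 23 probe sets in rows on the 6 arrays in columns, TGF-β arrays left of the line and untreated arrays right of it. JUNB has the widest gap between its lowest TGF-β value (0.27) and its highest untreated value (-0.27), and TGF-β array 2 holds both a high KLF10 value (1.24) and a low IER2 value (-0.73).

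The genes whose signal ran most like that of a member were found by Pearson r over the 6 arrays among 13269 annotated probe sets of other genes, as a description; with so few arrays, 147 to 280 of them had r over 0.9 with each member that rose. Most like JUNB were NDFIP2 (r = 0.996), SEMA6A (0.995) and EXT1 (0.994), of which NDFIP2 rose by 0.65 log2 units (adjusted p = 0.0101). Most like IER3 were RGS16 (r = 0.996), TMEM170A (0.985) and LRP12 (0.984). Of these, RGS16, which restrains G protein signalling, rose by 1.11 (adjusted p = 0.002) and LRP12, a receptor of the lipoprotein receptor family, by 0.68 (adjusted p = 0.027). SLC35E2B (r = 0.993), INTS5 (0.987) and PKNOX1 (0.984) were most like FOS a, and ERMN (0.996), PDLIM7 (0.992) and SLC6A20 (0.992) most like FOS b, with no gene in common; of these, PKNOX1 rose by 0.74 (adjusted p = 0.01) and PDLIM7 by 0.48 (adjusted p = 0.0447). For KLF10 b they were RPS12 (r = 0.992), RPL38 (0.99) and SYVN1 (0.989), none of which passed the test.

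No other AP-1 component that was listed and measured passed the test. Of 15 further FOS, ATF, BATF, JDP and MAF genes listed, 8 were measured with 11 probe sets, and limma called 0 higher and 0 lower, with 0 and 1 at an unadjusted p under 0.05 (8.6% and 11.1% of all probe sets). FOSB had differences of 0.16 and 0.04, FOSL1, which encodes Fra-1, 0.03, and ATF3, a stress-induced repressor, 0.05. ATF7, a relative of ATF2, had the smallest p, with -0.35 (adjusted p = 0.0994) on one probe set and -0.18 on the other. The median over the list was 0.035. Nor did any measured kinase on a list of MAP kinase pathway genes, which act upstream of FOS and EGR1. The list does not hold every kinase of these pathways. Of 16 measured genes of MAP kinases, their activating and downstream kinases and the TAB adaptors, with 23 probe sets, 0 were called in each direction by limma, with 4 higher and 3 lower at an unadjusted p under 0.05 (8.6% and 11.1% of all) and a median of -0.029. The ternary complex factor genes on that list (ELK1, ELK3 and ELK4) had no annotated probe set among those tested.

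Among 26 other measured immediate early genes, with 43 probe sets, 4 genes rose and 1 fell (9.3% and 2.33% of the probe sets, against 2.44% and 3.46% of all). PIM1, which encodes a kinase that favours survival, rose by 1.80 log2 units (SE 0.173, adjusted p = 0.000986, n = 3 pairs), further than any member. PLK3, which encodes a stress-responsive kinase, rose by 0.92 (adjusted p = 0.00511), and GADD45B, which encodes an activator of stress MAP kinases and is a known TGF-β target, by 0.87 (adjusted p = 0.00685). SGK1, a serum-induced kinase gene, rose by 0.58 on 1 of 3 probe sets (adjusted p = 0.0321), with 0.51 and -0.11 on the others, and lost its call without replicate 1 or 2 (0.179 and 0.137). ZFP36L2, whose product speeds the decay of mRNAs with AU-rich elements, fell by 1.18 (adjusted p = 0.00125) on 1 probe set and had -0.01 on the other. With the replicate number as a random effect, GADD45B, SGK1 and ZFP36L2 did not keep their calls (adjusted p = 0.0615, 0.176 and 0.0869). The median over the list was 0.059.

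**Figure D4:**
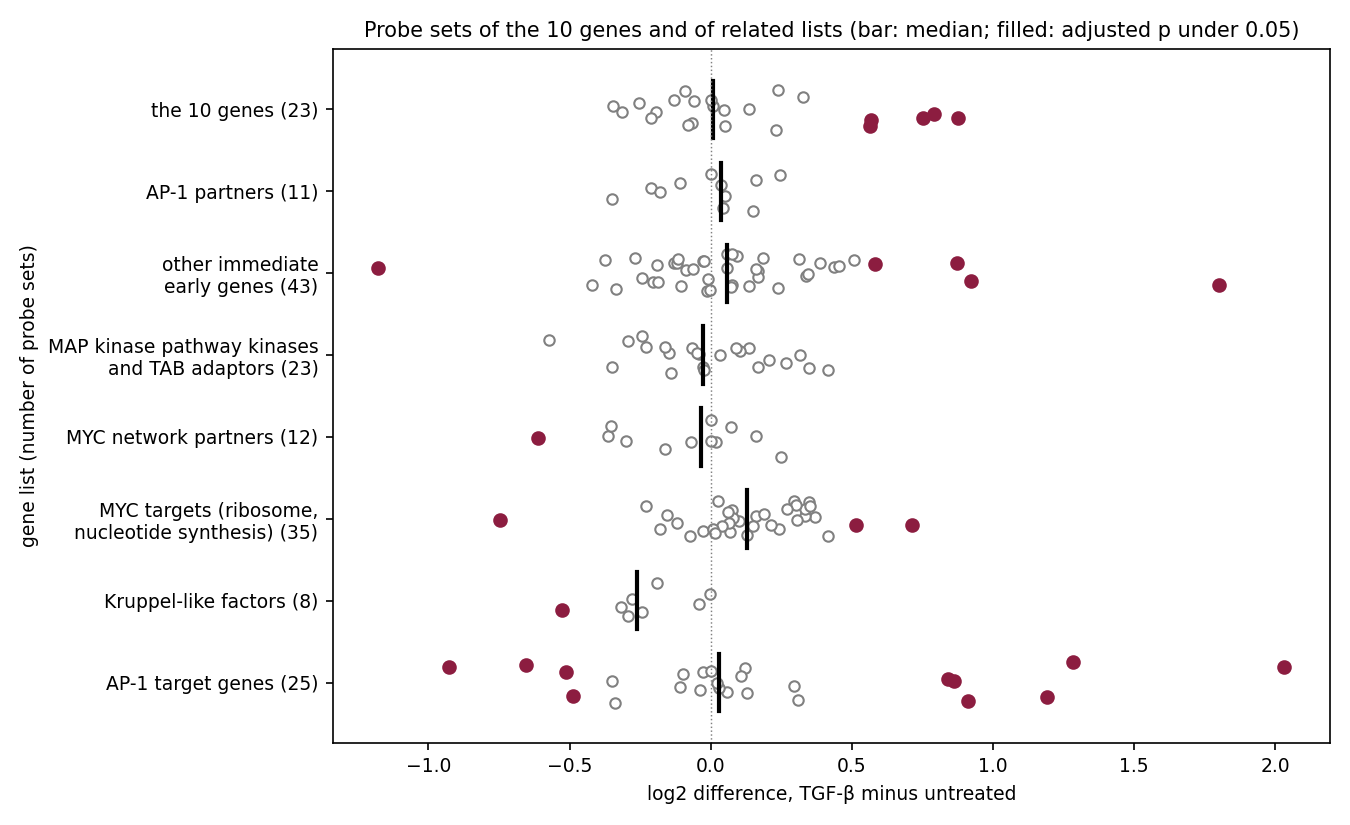
Log2 difference, TGF-β minus untreated, of every probe set (points, filled where the adjusted p is under 0.05) of the 10 genes and of 7 lists of related genes, with the median of each list as a bar. Filled points of the 10 genes lie only above 0, whereas other immediate early genes, MYC targets and AP-1 targets have filled points on both sides, and PIM1 (1.80) and IL6 (2.03) lie furthest to the right.

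Of the genes around MYC, 1 of 12 probe sets of 7 measured network partners fell and none rose in limma (3.46% and 2.44% of all probe sets), with 4 lower and 0 higher at an unadjusted p under 0.05 (11.1% and 8.6% of all). It belongs to MXI1, whose product competes with MYC for MAX, with a difference of -0.61 (SE 0.110, adjusted p = 0.0154, n = 3 pairs), against -0.37 and -0.07 on its other probe sets. MXI1 lost its call without replicate 2 or 3 (adjusted p = 0.0788 and 0.0507). Of 21 measured MYC target genes of ribosome and nucleotide synthesis, with 35 probe sets, 2 rose and 1 fell (5.71% and 2.86% of the probe sets, against 2.44% and 3.46% of all). At an unadjusted p under 0.05 in limma, 10 probe sets were higher and 1 lower (8.6% and 11.1% of all), and the median was 0.128. SRM, which encodes spermidine synthase, rose by 0.71 (adjusted p = 0.0181) and NOLC1, which encodes a nucleolar phosphoprotein, by 0.52 on 1 of 2 probe sets (adjusted p = 0.0264). LDHA, which encodes lactate dehydrogenase A, fell by 0.74 on 1 of 3 (adjusted p = 0.0288). Without replicate 2 none of the 3 kept its call (adjusted p = 0.106, 0.117 and 0.129), and NOLC1 also lost it without replicate 1 or 3 (0.0737 and 0.081). With the replicate number as a random effect, SRM, NOLC1 and LDHA were not called (adjusted p = 0.229, 0.0967 and 0.189).

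Of 5 other measured Krüppel-like factors, with 8 probe sets, 1 probe set fell and 0 rose in limma (3.46% and 2.44% of all). At an unadjusted p under 0.05, 2 were lower (both KLF11) and 0 higher (11.1% and 8.6% of all), and the median was -0.261. The probe set that fell belongs to KLF11, which is also known as a TGF-β-inducible early gene, with -0.53 (SE 0.121, adjusted p = 0.0396, n = 3 pairs), against -0.32 and -0.19 on its other probe sets. It lost its call without replicate 1 or 2 (adjusted p = 0.152 and 0.187) and with the replicate number as a random effect (0.0817). On means over probe sets, the KLF10 difference exceeded that of KLF11 by 0.92, 1.16 and 0.45 in pairs 1, 2 and 3 (0.84 ± 0.36, SD). KLF10 had risen and KLF11 had fallen on 1 probe set each, so the direction followed from that choice of genes. On these means KLF10 itself was not called by limma's paired fit (adjusted p = 0.0544).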

How the data were processed

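The 6 arrays were used as 3 TGF-β and 3 untreated samples, as labelled. Per the methods, the authors subtracted background and normalized the arrays with Robust Multichip Average in GeneSpring; the deposited log2 values are centred on each probe set's median over the arrays (largest absolute median 5e-07). A filter on dim probe sets was therefore not possible, and the number of arrays limits the precision. Of 24128 probe sets, 112 array controls were left out. The platform annotation gave 1 symbol to 13292 of the 24016 tested, several to 86 and none to 10638; updating symbols through their Entrez IDs changed no member. No 2 of the 15 pairs of arrays shared more than 56 values.

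Tests were 2-sided, in R 4.3.3 with limma 3.58.1 and statmod 1.5.0; lmFit and eBayes were given treatment and replicate number as terms (2 residual degrees of freedom, prior SD 0.144, prior degrees of freedom 6.72), and scripts were tested on simulated data. The numbers were taken to pair the arrays because deviations from the group means correlated across probe sets for every same-numbered pair (r = 0.74, 0.694 and 0.845, against -0.683 to 0.185 for other numbers). In the paired fit, p-values weigh the mean pair difference against the spread of the pair differences of these samples, drawn toward that of all probe sets. Differences between replicates do not enter it. The members and lists were chosen with earlier results of these data known. All members are named; of each list, the 2 genes with the smallest p in each direction among those called, and every called gene where 5 or fewer were, and other list members were chosen after their values were seen. For each member that rose, the 3 genes with the highest r are named. Alternatives were the groups alone, the unequal-variance test of the methods, the replicate as a random effect, quantile normalization, array medians set to 0, robust eBayes, means over probe sets, updated symbols, and leaving out arrays. Figures were drawn with matplotlib 3.10.9.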

Additional observations from a re-analysis of the deposited data

How the results depend on the processing

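The paired fit called 5 members higher and 0 lower, and 585 and 832 of all probe sets. Without the replicate block, limma called 0 members and 0 probe sets in either direction, and so did the unequal-variance test once adjusted in the same way. With the replicate block as a random effect it called 1 member (JUNB) higher, and 148 and 164 of all probe sets. Quantile normalization acted on values already normalized and centred, whose SD ran from 0.23 to 0.47 between arrays. It therefore changed the sizes of differences too, as in KLF10 b (0.99, against 0.75 in the main fit). After it, the paired fit called 2 members (JUNB and IER3), and 377 and 443 of all. On means over probe sets it called 3 genes of the set (FOS, JUNB and IER3), and 205 and 419 of all genes. Leaving out arrays gave 0 to 5 members higher, and 0 to 590 higher and 0 to 747 lower of all; without replicate 1 or without replicate 2, JUNB and IER3 were the 2 members called. With array medians set to 0, 4 members were called, without FOS a (adjusted p = 0.0538), and robust eBayes and updated symbols left 5. No member was called lower in any setting. Of the 23 called probe sets of related lists (markers aside), 16 lost the call with the replicate block as a random effect, 10 after quantile normalization, 1 with robust eBayes, 10, 14 and 5 without replicate 1, 2 and 3, and all 23 without the replicate block. The cause of these differences was not tested.

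Small differences changed sign, none of them called among members. FOSL2 b had -0.018 after quantile normalization and -0.003 with array medians set to 0. JUN d had -0.009 with array medians set to 0, and the gene means were -0.059 for JUN and -0.175 for JUND, against positive values of JUN d, JUN b and JUND a. Ranges over leaving out arrays join whole replicates, with the replicate block, and single arrays, without it. Leaving out a single array breaks a pair, so that differences between replicates enter the value. The ranges that crossed 0 were, for JUN, -0.246 to 0.17 (JUN c), -0.086 to 0.144 (JUN d), -0.041 to 0.111 (JUN b) and -0.175 to 0.031 (JUN e). For FOSL2 they were -0.034 to 0.19 (FOSL2 c) and -0.046 to 0.049 (FOSL2 b). For EGR1 they were -0.281 to 0.043 (EGR1 b) and -0.296 to 0.088 (EGR1 a), for IER2 -0.176 to 0.085 (IER2 c) and for MYC -0.031 to 0.381. MYC was below 0 only without TGF-β array 3 and without the block, although all 3 of its pair differences were positive. Among called list genes they were -1.138 to 0.137 and -1.27 to 0.208 for COL1A2, -1.745 to 0.669 for CENPF, -1.509 to 0.323 for MCM4 and -1.353 to 0.166 for TYMS, all on the groups alone.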

Other observations

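Genes known to be driven through AP-1 elements moved in both directions. Of 18 measured, with 25 probe sets, 5 genes rose (6 probe sets, 24.0%) and 3 fell (4 probe sets, 16.0%), and the median was 0.03 log2 units. Of all probe sets, 2.44% rose and 3.46% fell. The list was chosen with earlier results of these data known. IL6, a cytokine gene, had 0.96, 0.38 and 2.14 log2 units on TGF-β arrays 1, 2 and 3, against -1.26, -0.97 and -0.38 on the untreated arrays. The groups did not overlap, and the difference was 2.03 (SE 0.197, n = 3 pairs; limma adjusted p = 0.000992). The angiogenic factor gene VEGFA rose by 1.28 and 1.19 on its called probe sets (adjusted p = 0.00232 and 0.00452), the cytokine gene LIF by 0.86 (0.0047), PLAUR, which encodes the urokinase receptor, by 0.91 (0.0109) and the ligand gene TGFB1 by 0.84 (0.024). HMOX1, which encodes heme oxygenase 1, fell by 0.93 (adjusted p = 0.00842), and the collagen gene COL1A2 (-0.49 and -0.65) and the cyclin gene CCND1 (-0.51) fell as well. The collagenase and stromelysin genes, the textbook AP-1 targets of cartilage, did not pass the test: MMP1 had 0.29 (adjusted p = 0.306), MMP13 had 0.11 and 0.03, and MMP3 had -0.10 to 0.13. IL6, VEGFA and LIF kept their calls without each replicate in turn, whereas TGFB1 lost its call without replicate 1 or 2 (adjusted p = 0.0857 and 0.119) and PLAUR and HMOX1 without replicate 2 (0.0658 and 0.0579). CCND1 lost its call without any 1 of the 3 (adjusted p = 0.0598 to 0.17), as did 1 probe set of COL1A2 (0.101 to 0.113), and the other lost it without replicate 1 or 2 (0.228 and 0.068). With the replicate number as a random effect, IL6, LIF, HMOX1 and 1 probe set of VEGFA were still called, whereas the other VEGFA probe set (adjusted p = 0.0881), PLAUR (0.136), TGFB1 (0.127), CCND1 (0.325) and COL1A2 (0.554 and 0.512) were not.

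Of 34 probe sets of 24 cell cycle genes, a list drawn up because replicate 3 was known to be high in them, 3 fell (8.82%) and 0 rose in limma (3.46% and 2.44% of all probe sets), with 13 lower and 0 higher at an unadjusted p under 0.05 (11.1% and 8.6% of all). These were MCM4 (-0.60, adjusted p = 0.0125), CENPF (-0.56, 0.0267) and TYMS (-0.53, 0.036). The other probe set of CENPF had -0.028 and that of TYMS -0.034, and neither passed. MCM4 and TYMS were no longer called without replicate 1 (adjusted p = 0.0562 and 0.185) and without replicate 2 (0.0597 and 0.167), and CENPF without replicate 1 or 3 (0.145 and 0.0756). With the replicate number as a random effect, MCM4, CENPF and TYMS were not called in limma (adjusted p = 0.622, 0.743 and 0.597). Nor were they after quantile normalization (0.0949, 0.127 and 0.165).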
